A study of Mus musculus with 11 samples.

Results

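Pi16-positive fibroblasts of the mouse liver were picked out by their own counts, in the 2 droplet libraries made with the PF isolation. A cell was a member if it had at least 300 genes, at most 30% of its unique molecular identifiers (UMIs, each counting 1 captured RNA molecule) on mitochondrial genes, at least 2 UMIs of Pi16 and no more than 1 UMI of Myh11 and Cnn1 together. The rule found 2241 of 5737 cells in the uninjured library and 1025 of 5648 cells in the library of mice given CCl4 for 6 weeks. These 3266 cells stood among 30999 cells of all 5 droplet libraries. The comparison cells were the other cells of the same library with at least 4 UMIs of Cd34, Clec3b and Dpt together, 1835 uninjured and 1896 CCl4 cells, called other fibroblasts here. Because Pi16, Myh11, Cnn1, Cd34, Clec3b and Dpt set the classes, their levels are given only as a description.

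All cells came from male Pdgfrb-BAC-eGFP mice on a C57BL/6 background, 10 to 16 weeks old, in which the promoter of Pdgfrb drives GFP in mesenchymal cells, and GFP-positive cells without CD45 or CD102 on their surface were sorted. Each droplet library (10X Chromium) pooled the livers of 3 mice, so that each condition of the PF isolation had 1 library, and no test between conditions was possible there. Six-week CCl4, a toxin of the hepatocytes around the central vein, was given by repeated intraperitoneal injection, with the livers taken 48 h after the last dose. A separate set of 6 Smart-seq2 plates held single cells of uninjured mice, of mice 14 days after bile duct ligation (BDL), which blocks bile flow, and of mice given CCl4 for 6 weeks, and their wells were not used by the rule.

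Pi16 encodes peptidase inhibitor 16, a secreted and membrane-anchored protein of the CAP family. Fibroblasts carrying Pi16 are known from the outer coat, or adventitia, of vessels in many organs, where Cd34, Dpp4, Ly6c1 and Cd55 are often found with it. In the liver, fibroblasts lie mainly around the vessels and bile ducts of the portal tract, apart from the stellate cells (HSCs) of the sinusoids and the vascular smooth muscle cells (VSMCs) of the vessel wall. On the GRCm38 build, Pi16 (ENSMUSG00000024011) lies on chromosome 17, 29317680 to 29330593, on the plus strand. The markers named with it lie elsewhere, Mfap5 on chromosome 6 (122505845 to 122529290), Ly6c1 on chromosome 15 (75044018 to 75048830) and Cd55 on chromosome 1 (130439027 to 130462744).

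The uninjured PF library held 25965670 UMIs and the CCl4 PF library 31095219. The median member carried 5270 UMIs on 2071 genes in the uninjured library and 6671 UMIs on 2436 genes in the CCl4 library. Other fibroblasts were shallower, with medians of 4559 and 6242 UMIs. The PF libraries shared 45 cell barcodes.

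Smooth muscle RNA differed between both libraries before any comparison was made. The limit on Myh11 and Cnn1 left out 186 of 2427 uninjured cells with at least 2 Pi16 UMIs, or 7.66%, but 592 of 1617 CCl4 cells, or 36.6%. Acta2, the smooth muscle actin, had a UMI in 62.8% of uninjured and in 95.8% of CCl4 members. The comparison cells carried no such limit, and 192 of 1835 (10.46%) uninjured and 850 of 1896 (44.8%) CCl4 other fibroblasts had 2 or more UMIs of Myh11 and Cnn1. For the same reason 102 (5.56%) uninjured and 407 (21.5%) CCl4 other fibroblasts themselves had 2 or more Pi16 UMIs. The classes were therefore also compared against other fibroblasts held to the limit of the members, the low-mural comparison, with 1643 and 1046 cells.

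The members made up 55.0% of the fibroblasts of the uninjured library (95% exact binomial interval 53.4 to 56.5%) and 35.1% of those of the CCl4 library (33.4 to 36.9%). Beside low-mural cells alone the shares were 57.7% (56.1 to 59.3%) and 49.5% (47.3 to 51.7%). Here and below, intervals cover counting error only, not the spread between mice. At the edge of the rule, 357 uninjured and 205 CCl4 members had exactly 2 Pi16 UMIs, while 686 and 606 other fibroblasts had 1. The median member had 8 Pi16 UMIs in the uninjured and 6 in the CCl4 library, with highest values of 258 and 124. Pi16 UMIs were also found in cells of smooth muscle type, and whether these cells express Pi16 was not tested. Among 1098 uninjured and 1570 CCl4 VSMC-type cells (at least 4 UMIs of Myh11 and Cnn1, at most 1 of Cd34, Clec3b and Dpt) 32.1% and 34.4% had at least 1 and 5.56% and 6.88% at least 2. These VSMC-type cells were shallower than the members, with median UMI counts of 3263.5 and 4245.

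Of the markers named with Pi16 in the label of these cells, Mfap5 was found in most members and Ly6c1 and Cd55 in fewer than 1 in 2. Mfap5 encodes a glycoprotein of elastic microfibrils. It was detected in 89.6% of uninjured members against 56.4% of other fibroblasts, and in 88.2% against 62.6% in the CCl4 library. Ly6c1, a lipid-anchored surface protein of the Ly6 family, was detected in 38.6% against 12.2% and in 34.0% against 15.03%. Cd55, or decay-accelerating factor, which restrains complement at the cell surface, was detected in 42.1% against 19.8% and in 41.9% against 24.4%. The shares in VSMC-type cells were 17.9% and 21.97% for Mfap5, 3.10% and 3.69% for Ly6c1 and 1.18% and 1.53% for Cd55. With every cell thinned to 2000 UMIs, Ly6c1 was detected in 26.2% of uninjured and 19.5% of CCl4 members, against 7.72% and 7.32% of other fibroblasts. Reads of Ly6c1 and of the near-identical Ly6c2 next to it could have been exchanged in counting, which was not tested.

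All of Ly6c1, Mfap5 and Cd55 were detected in 518 of 2241 uninjured members (23.1%) and in 188 of 1025 CCl4 members (18.3%), and none of them in 170 (7.59%) and 77 (7.51%). In other fibroblasts all 3 were detected in 3.98% and 6.28% of cells, and in VSMC-type cells in 1 of 1098 and in 0 of 1570. A marker without a UMI may still be expressed at this depth. The cells are called Pi16-positive fibroblasts below, after the rule.

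Clustering of the PF cells without the genes of the rule placed most members in 7 of 18 clusters. Cluster 3, led by Ly6c1, Dact2, Dpp4 and Cd248, held 33.9% of uninjured and 22.6% of CCl4 members, and 84.9% and 73.2% of its cells were members. Cluster 9, led by Cxcl14, Myoc, Apod and Meox1, held 20.04% and 6.05% of members, which made up 85.5% and 70.5% of it. Cluster 2, led by Thbs4, Sfrp2 and Tnmd, held 23.3% and 22.05%, and cluster 1, led by Cxcl13, Grem1 and Penk, held 8.03% and 27.4%. The Wif1-led cluster 14 held 3.21% and 3.90% of members. Since genes such as Cxcl14 both defined a cluster and differed between the libraries, the cluster shares are not read as a difference in cell number.

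**Figure D1:**
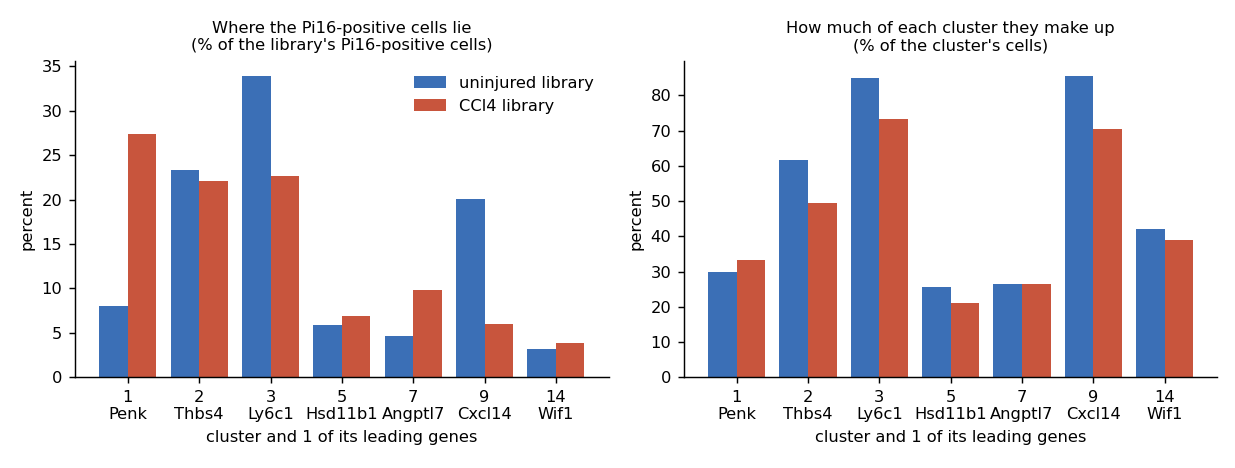
Left, percent of the Pi16-positive cells of each library that lay in each cluster, and right, percent of the cells of each cluster that were Pi16-positive, for the 7 clusters that held most of them (blue, uninjured; red, CCl4; 1 library each, so no error bars). Clusters 3 and 9 were mostly Pi16-positive cells in both libraries (70.5 to 85.5%), whereas clusters 5 and 7 were so to between 21.1 and 26.5%.

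Within the members, the label's markers differed between clusters, which for Ly6c1, Thbs4, Dpp4 and other genes used in the clustering is a description only. Levels in CPM are the UMIs of a gene, added over the cells of a group, for every 1000000 of their UMIs. In uninjured members Ly6c1 stood at 595 CPM in cluster 3, 246 in cluster 9, 136 in cluster 1 and 29.5 in cluster 2. The same order was seen in CCl4 members, at 572, 394, 139 and 26.3 CPM. Mfap5 was high in clusters 3, 9 and 2, with 2413, 1734 and 1492 CPM in uninjured and 2537, 1664 and 1206 CPM in CCl4 members, and low in the Wif1-led cluster 14, with 114 and 104 CPM. Cd55 was highest in cluster 3, at 299.7 and 322 CPM, and stood at 61.0 and 63.6 CPM in cluster 2. Thbs4, a thrombospondin of the extracellular matrix, was highest in cluster 2, at 859 and 1088 CPM. It stood at 302 and 430 CPM in cluster 9 and at 144 and 18.5 CPM in cluster 3. Dpp4, a dipeptidyl peptidase of the cell surface, was highest in cluster 3, at 48.8 and 75.3 CPM there and at no more than 15.2 CPM in the others.

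Pi16-positive cells differed from other fibroblasts by a short list of higher genes. Of 5734 genes with at least 20 CPM in the higher class of both libraries, 23 (0.401%, Pi16 among them) were at least 2-fold higher in members in both libraries and 66 (1.15%) at least 2-fold lower. With 1 library per condition these are folds past a fixed size, not tested calls. The higher count was 5 with a minimum of 1 Pi16 UMI, 52 with a minimum of 4 and 57 in thinned cells. Of the matrix and secreted genes, Thbs4 was at 301.7 CPM in uninjured members and 62.6 in other fibroblasts, a 4.82-fold difference (interval 4.40 to 5.28), and 3.04-fold higher in the CCl4 library (252.8 against 83.1 CPM). Mfap5 was at 1621 against 436 CPM and 1225 against 544 CPM, or 3.72-fold (3.59 to 3.86) and 2.25-fold (2.18 to 2.33) higher. Col8a1, a short-chain collagen of vessel walls, was 3.73-fold and 2.58-fold higher, and Prg4, the lubricating proteoglycan of joints, 2.24-fold and 2.29-fold.

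Of the surface proteins, Ly6c1 stood at 280.2 against 66.5 CPM and 196 against 78.6 CPM, which was 4.21-fold (3.85 to 4.61) and 2.49-fold (2.29 to 2.71) higher. Cd55 was 2.74-fold (2.49 to 3.01) and 2.104-fold (1.91 to 2.32) higher, with 172.0 and 134.5 CPM in members. Cd248, or endosialin, was 3.43-fold and 2.096-fold higher and the adhesion gene Cadm3 3.65-fold and 2.38-fold. The other named genes were Angptl1 (3.04-fold and 2.31-fold), Lrrn4cl (3.05-fold and 2.103-fold), Tmem100 (2.43-fold and 2.07-fold), Scara3 (2.31-fold and 2.05-fold), Zfp385a (2.82-fold and 2.04-fold) and Pcsk6 (2.60-fold and 2.00-fold). Sbsn, the next in rank, was 2.22-fold higher in the uninjured and 1.96-fold in the CCl4 library and so missed the threshold there. At lower levels, Dpp4 was at 21.2 against 3.46 CPM and 20.4 against 4.72 CPM, 6.13-fold and 4.32-fold higher, Dact2, a Wnt and TGFβ pathway modulator, 5.34-fold and 2.33-fold, and Stmn4 4.98-fold and 2.63-fold.

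Of a list of 26 genes linked with Pi16 fibroblasts, 19 passed the level filter in both libraries, 8 of them were past 2-fold higher and 0 lower, against the 0.401% of all genes. Their median fold was 2.74 in the uninjured and 1.84 in the CCl4 library, beside 1.01 and 1.00 over all genes tested. That list was drawn up with results of these data known, so its count is a description.

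In the low-mural comparison all 23 stayed past 2-fold among 54 of 5690 genes (0.949%), with Ly6c1 at 5.07-fold and 8.03-fold, Thbs4 at 5.51-fold and 5.12-fold, Mfap5 at 4.32-fold and 3.73-fold and Cd55 at 3.04-fold and 2.82-fold. Not every fold was larger there, Prg4 standing at 2.14-fold and 2.04-fold. Of the 18 elastic fibre genes 4 were past 2-fold higher there and 0 lower, with median folds of 1.10 and 1.18. These were Mfap5, Fbn1 at 2.39-fold and 2.37-fold, Fbln2 at 2.66-fold and 2.20-fold and Emilin2 at 3.08-fold and 2.40-fold, while Emilin1 of the same family had folds of 0.604 and 0.659.

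**Figure D2:**
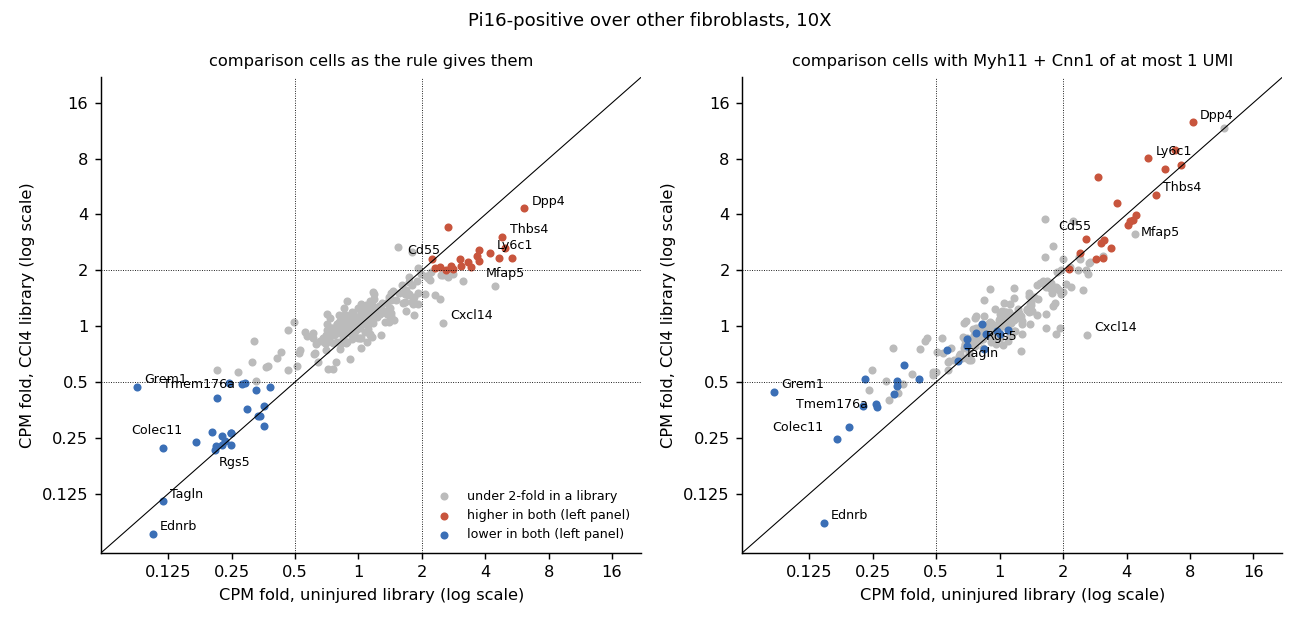
CPM fold of Pi16-positive cells over other fibroblasts in the uninjured (x) and CCl4 (y) library, on log scales, for the genes of the fixed lists, the named genes and the genes past 2-fold, with the genes of the rule left out (dotted lines, 2-fold; solid line, equal folds). Left, all other fibroblasts, and right, those with at most 1 UMI of Myh11 and Cnn1, where Ly6c1 and Mfap5 moved up and Tagln and Rgs5 moved from near 0.118 and 0.208 (uninjured folds) to 0.635 and 0.822, while Colec11 stayed at 0.168.

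Among cells within the limit on Myh11 and Cnn1, the levels of Mfap5, Ly6c1, Cd55 and Thbs4 were highest in those with 8 or more Pi16 UMIs. From 0 to 1, 2 to 3, 4 to 7 and 8 or more Pi16 UMIs, Mfap5 stood at 313, 461, 691, 1114 and 2211 CPM in the uninjured and at 297, 371, 552, 813 and 1881 CPM in the CCl4 library. Not every marker was higher at each step, since in the CCl4 library Ly6c1 stood at 31.4, 14.9, 66.1, 103 and 329 CPM, and Thbs4 at 56.1 and 40.1 CPM with 0 and 1 Pi16 UMIs. Deeper cells hold more UMIs of every gene, so the cells were also thinned to 2000 UMIs. With the limit on Myh11 and Cnn1 kept on all UMIs of a cell, Mfap5 in thinned cells stood between 432 CPM at 0 and 2837 CPM at 8 or more Pi16 UMIs in the uninjured library and between 372 and 2628 CPM in the CCl4 library. Ly6c1 stood at 70.95 and 419 CPM and at 37.5 and 428 CPM at these ends. With the limit applied to the thinned UMIs, which admits cells over the limit on all UMIs, Mfap5 stood at 429 and 2835 CPM and at 376 and 2769 CPM. On all UMIs Dpt, a dermatopontin gene of the gate, went the other way, from 2538 to 1726 CPM in the uninjured and from 2884 to 2273 CPM in the CCl4 library. The other gate genes did not, with Cd34 at 727 and 1234 CPM and Clec3b at 2546 and 3617 CPM at these ends in the uninjured library. Cells with 0 or 1 Pi16 UMIs had to pass the gate, whereas members did not. Across the edge of the rule, cells with 1 and with 2 to 3 Pi16 UMIs had 62.0 and 100.4 CPM of Cd55 and 68.7 and 137 CPM of Thbs4 in the uninjured library, and 46.1 and 64.1 CPM and 40.1 and 100.3 CPM in the CCl4 library.

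**Figure D3:**
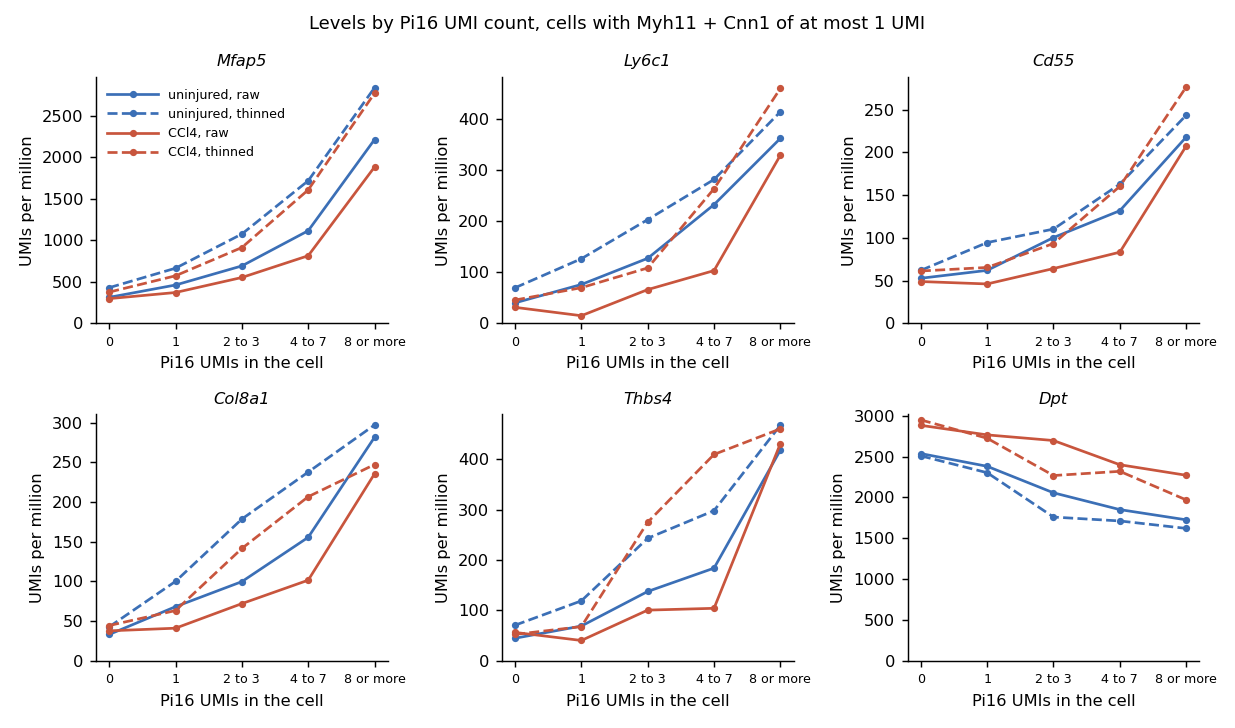
CPM of 6 genes (y) by the number of Pi16 UMIs in the cell (x), for cells with at most 1 UMI of Myh11 and Cnn1 (blue, uninjured; red, CCl4; solid, all UMIs; dashed, cells thinned to 2000 UMIs, with the limit applied to the thinned UMIs). Mfap5, Ly6c1, Cd55, Col8a1 and Thbs4 were highest at 8 or more Pi16 UMIs in every line, and Dpt was lowest there.

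The lower genes were of 2 kinds, according to whether they kept their difference in the low-mural comparison. Of the 4 VSMC markers that the rule did not use, 4 were past 2-fold lower, beside 1.15% of all genes. The limit on Myh11 and Cnn1 held for the members alone in this comparison. Tagln (transgelin) was at 61.6 against 523 CPM in the uninjured and 138 against 1208 CPM in the CCl4 library, folds of 0.118 and 0.114. Rgs5, a regulator of G protein signalling in pericytes and smooth muscle, was at 13.6 against 65.4 CPM and 132 against 613 CPM, folds of 0.208 and 0.215. Acta2 had folds of 0.234 and 0.239, Tinagl1 of 0.211 and 0.226, Pcp4l1 of 0.225 and 0.230, Pln of 0.249 and 0.264, Myl9 of 0.334 and 0.328, Des of 0.342 and 0.327 and Gm13889 of 0.357 and 0.291.

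Against other fibroblasts within the limit, none of these 9 genes was 2-fold lower in either library. Tagln then had folds of 0.635 and 0.650, Acta2 of 0.866 and 0.905 and Pln of 0.967 and 0.947. Rgs5 had folds of 0.822 and 1.03 and Pcp4l1 of 1.00 and 0.912, so that their direction no longer held in both libraries. Mylk, Gucy1a3, Tnnt2 and Lmod1 kept folds under 0.5 in the uninjured library alone, at 0.413, 0.327, 0.229 and 0.352, against 0.520, 0.509, 0.519 and 0.618 in the CCl4 library. Mir143hg was lower in both, at 0.326 and 0.477. Of the 66 lower genes, 19 stayed past 2-fold lower among 39 of 5690 (0.685%).

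Colec11, a collectin of the lectin complement pathway that is abundant in HSCs, kept its difference. It stood at 17.2 CPM in uninjured members and 102 CPM in other fibroblasts and at 22.4 and 94.0 CPM in the CCl4 library, folds of 0.169 and 0.239, and of 0.168 and 0.248 in the low-mural comparison. A cluster led by HSC genes, with Lrat, Ednrb and Colec11 among them, held 109 other fibroblasts and 9 members, and its part in the differences of Colec11 and Ednrb was not tested. Other genes lower in both comparisons were of several kinds. Cxcl12, the chemokine that binds Cxcr4, was at 515 against 1780 CPM and 597 against 1208 CPM, with folds of 0.289 and 0.494 and, in the low-mural comparison, of 0.263 and 0.367. Apoe, a lipid carrier (0.242 and 0.494), Igfbp3 (0.212 and 0.407), Pdgfa (0.327 and 0.453), Tmem176a (0.281 and 0.487) and Grem1, a BMP antagonist (0.0889 and 0.471), were also lower in both comparisons. Grem1 was near its floor in uninjured members, with 1.91 CPM from 23 UMIs.

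Against other fibroblasts without the limit, of 21 fibrillar collagens and small leucine-rich proteoglycans tested, 0 were past 2-fold in either direction, beside 0.401% and 1.15% of all genes, with a median fold of 0.955 in the uninjured and 1.13 in the CCl4 library. Col1a1 was at 1363 against 1596 CPM and 1833 against 1595 CPM. Of 18 elastic fibre genes 1 was higher, Mfap5, with Fbln2 at 2.46-fold and 1.89-fold and Fbn1 at 2.18-fold and 1.77-fold below the threshold in the CCl4 library. Of 12 complement genes Cd55 alone was higher, of 15 chemokines and cytokines Cxcl12 was lower, of 22 Wnt, BMP and TGFβ genes Grem1 was lower, and of 16 growth factor and receptor genes Pdgfa was lower. No gene of the 15 of basement membrane, the 6 of hyaluronan, the 26 protease inhibitors other than Pi16, the 30 transcription factors, the 9 immediate early genes or the 8 heat shock genes tested passed 2-fold in either direction in both libraries. In the low-mural comparison the collagens and proteoglycans had 1 lower gene, Fmod, at folds of 0.330 and 0.437, the complement genes also C4b lower, at 0.240 and 0.454, and the chemokines and cytokines also Ccl19 lower, at 0.349 and 0.489. Fgf18 of the growth factors and Creb5 and Ebf2 of the transcription factors were higher there.

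Markers of endothelial, blood, epithelial, mesothelial and Schwann cells were low in the members, and those of HSCs and VSMCs were higher. Summed over 6 genes each, endothelial markers came to 11.9 CPM in both libraries, with Pecam1 highest at 6.88 and 7.78 CPM and 1 gene at 0 in each, and leucocyte markers to 6.55 and 4.69 CPM with 2 genes at 0. Hepatocyte markers came to 34.0 and 24.5 CPM, led by Alb at 9.28 and 8.95 CPM, cholangiocyte markers to 23.3 and 14.1 CPM, nearly all of it Sox9, mesothelial markers to 0.994 and 2.05 CPM and Schwann cell markers to 2.57 and 5.72 CPM. The 7 HSC markers came to 636 and 696 CPM in members against 771 and 802 CPM in other fibroblasts, led by Ecm1 at 563 and 636 CPM. The 6 VSMC markers came to 475 CPM in uninjured and 1279 CPM in CCl4 members, led by Acta2 at 218 and 658 CPM. Their part in the difference between the libraries was not tested.

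Between conditions, 97 of 6006 genes (1.62%) were at least 2-fold higher and 28 (0.466%) at least 2-fold lower in CCl4 than in uninjured members. These compare 2 libraries of 3 pooled mice each, and the difference of condition and the difference of library cannot be told apart. Angptl4, a secreted inhibitor of lipoprotein lipase, was at 13.9 CPM in uninjured and 139.4 CPM in CCl4 members, 10.0 times as high (interval 8.49 to 11.9), and in other fibroblasts 6.02 times. Its level was higher in the CCl4 library in members of all 7 clusters, by 4.18 to 15.2 times, from 13.3 to 106 CPM in cluster 3. In VSMC-type cells it was at 4.42 and 45.4 CPM. Ddit4, a stress-induced inhibitor of mTORC1, was at 26.5 and 91.7 CPM, 3.46 times as high, and 3.15 times in other fibroblasts. Pi15, a relative of Pi16 in the CAP family, was 3.35 times, Wbp1l 3.11 times, Gm12840 3.03 times and the sodium pump subunit Atp1b1 3.02 times as high, beside 2.62, 2.74, 2.79 and 1.16 times in other fibroblasts. In low-mural other fibroblasts Gm12840 was 1.72 times as high. Within the 5 clusters where members had more than 3 UMIs of it in each library, Atp1b1 had ratios of 1.35 to 3.47, the highest in cluster 3.

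Rgs5 and Sncg, both genes of mural cells, were 9.68 and 4.62 times as high in CCl4 members and 9.38 and 3.80 times in other fibroblasts. Rgs5 stood within 6.46 to 12.7 CPM in uninjured and 115 to 139 CPM in CCl4 members whichever of the 7 clusters they lay in. In VSMC-type cells it was at 1005 and 3899 CPM. Of the 4 VSMC markers that the rule did not use 3 were past 2-fold higher, beside 1.62% of all genes, Acta2 by 3.02, Tpm2 by 2.58 and Tagln by 2.24 times. Myh11, whose UMIs the rule limited, had a ratio of 2.35. The part of smooth muscle RNA from other cells in these values was not tested.

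Among the genes lower in CCl4 members, Cxcl14, a chemokine, was at 363 and 127 CPM, a ratio of 0.349 (interval 0.324 to 0.375) against 0.841 in other fibroblasts. Its level was highest in cluster 9, at 1487 and 1029 CPM, a ratio of 0.692. Within the other clusters it went both ways, with ratios of 0.293 in cluster 5, 0.376 in cluster 2, 0.650 in cluster 3, 0.715 in cluster 14, 1.92 in cluster 7 and 2.21 in cluster 1. Dkk2, an antagonist of Wnt coreceptors, had a ratio of 0.363, with 177 and 27.4 CPM in cluster 3 and 54.5 and 33.6 CPM in cluster 2. Ccl2 (0.376), Pthlh (0.376), 6030419C18Rik (0.406), Kcnk2 (0.415) and Ccl7 (0.4204) were the other named genes. Ccl2, Pthlh, Kcnk2 and Ccl7 also went both ways within clusters, with ratios of 0.204 to 4.64, 0.475 to 2.17, 0.329 to 1.55 and 0.307 to 1.23, while Dkk2 and 6030419C18Rik were lower in each of the 4 and 5 clusters with more than 3 UMIs in each library. Ccl2 came from few cells, with a UMI in 3.21% of uninjured and 3.71% of CCl4 members. In other fibroblasts Dkk2 had a ratio of 0.508, Ccl2 of 0.267, Pthlh of 0.292, 6030419C18Rik of 0.557, Kcnk2 of 0.665 and Ccl7 of 0.579.

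**Figure D4:**
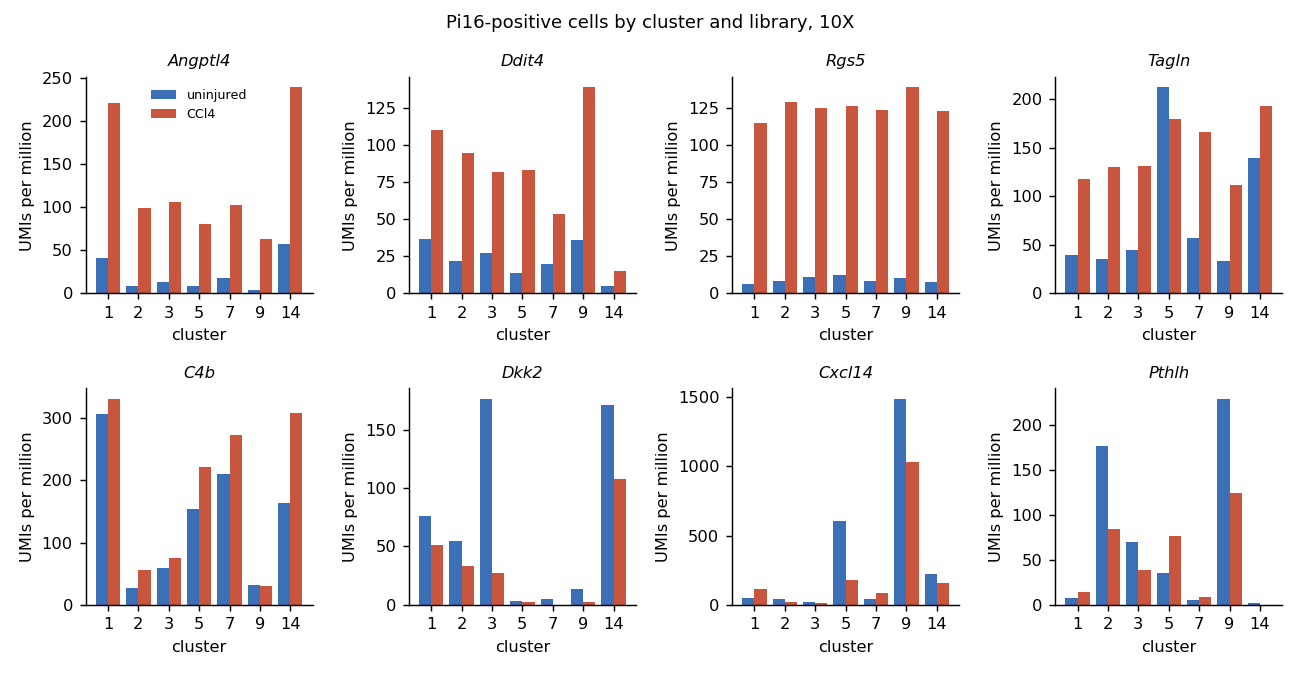
CPM of 8 genes (y) in the Pi16-positive cells of each of 7 clusters (x) in the uninjured (blue) and CCl4 (red) library, 1 library each and so without error bars. Angptl4, Ddit4 and Rgs5 were higher in the CCl4 library in every cluster, Rgs5 at 115 to 139 CPM throughout, whereas Tagln was lower in cluster 5, and Cxcl14 was highest in cluster 9. In cluster 14 Ddit4 rested on 2 uninjured and 4 CCl4 UMIs, and Rgs5 on 3 uninjured UMIs.

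Of 22 genes linked with Pi16 fibroblasts that were tested between the libraries, 0 were past 2-fold higher and 1 lower, Stmn4 at a ratio of 0.440. Over all genes 1.62% were past 2-fold higher and 0.466% lower. The median ratio of the list was 0.911, beside 1.27 for the same genes in other fibroblasts, 0.948 in low-mural other fibroblasts and 0.983 over all genes in members. Mfap5 had a ratio of 0.756 (interval 0.736 to 0.775), Ly6c1 of 0.699 and Cd55 of 0.782 in members, against 1.25, 1.18 and 1.02 in other fibroblasts. In low-mural other fibroblasts the ratios were 0.875, 0.441 and 0.842, below 1 as in members. The members lay in different clusters in each library, and within the clusters the ratios lay on both sides of 1, at 0.773 to 1.39 for Mfap5, 0.703 to 1.60 for Ly6c1 and 0.777 to 1.59 for Cd55, and above 1 in 3 of 7, 3 of 6 and 5 of 7 clusters. In cluster 3 they were 1.05, 0.960 and 1.07. Of 13 complement genes 3 were higher, C2 by 2.32, C4b by 2.24 and Cfb by 2.22 times, and 0 lower, beside 1.62% higher and 0.466% lower of all genes. Within the clusters C4b had ratios of 0.935 to 2.06. Of 15 chemokines and cytokines Cxcl14, Ccl2 and Ccl7 were lower, and of 21 collagens and proteoglycans Aspn (0.466). Of 30 transcription factors Twist1 (0.462) and Meox1 (0.479, and 0.494 to 4.47 within clusters) were lower and Tbx20 (5.28) and Hand2 (2.03) higher. Of 9 heat shock genes Hspa1a (0.438) and Hspa1b (0.372) were lower. In other fibroblasts Tbx20 had a ratio of 3.22, Twist1 of 0.497, Hspa1a of 0.546 and Hspa1b of 0.542. There Hand2 had a ratio of 1.20, Meox1 of 0.830 and Aspn of 0.731.

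The same question was put to the Smart-seq2 wells, where mice can serve as replicates. Of 2292 wells with a named mouse 2065 were kept, and 224 had at least 50 Pi16 reads for every 1000000 reads on genes (RPM) with no more than 500 RPM of Myh11 and Cnn1. Their median Pi16 level was 428 RPM and their lowest 51.1 RPM, and the highest among the 492 other fibroblast wells was 49.9 RPM. Of 873 mural-type wells 2 (0.229%) reached 50 RPM of Pi16. The median depth was 464452 reads in Pi16-positive and 438520 in other fibroblast wells. Reads were summed per portion, meaning the wells of 1 mouse on 1 plate, and 14 portions had at least 3 wells of each class, 5 uninjured, 5 BDL and 4 CCl4. Mouse names recur between plates and the labels do not say whether the mice do, so some portions may share an animal and the p-values would then be too small.

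Pi16-positive wells made up 22.2 to 35.3% of fibroblast wells in the uninjured portions (median 28.8%), 29.8 to 75.0% in BDL portions (median 37.5%) and 19.2 to 30.6% in CCl4 portions (median 22.3%), and the ranges overlapped. Portions with under 3 Pi16-positive wells were not among them, such as an uninjured portion of plate 6 with 1 of 17 fibroblast wells (5.88%). The highest BDL share came from a portion of 12 fibroblast wells.

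Across the 14 portions, edgeR's quasi-likelihood test with the portion as a block called 12 of 11216 genes higher (0.107%, Pi16 among them) and 7 lower (0.0624%) in Pi16-positive wells at a Benjamini-Hochberg adjusted p under 0.05. Crispld2, a secreted CAP family protein like Pi16, had a median of 1528 RPM in Pi16-positive and 642 RPM in other wells and was higher in 14 of 14 portions, with a log2 fold change of 1.44 (SE 0.27, edgeR adjusted p = 0.0361). Mgp, the matrix Gla protein that inhibits calcification, had medians of 5788 and 2744 RPM and rose in 13 of 14 portions (log2 fold change 1.09, SE 0.17, edgeR adjusted p = 0.012). Nbl1, a BMP antagonist, had medians of 1053 and 401 RPM (1.20, SE 0.20, edgeR adjusted p = 0.0155, 13 of 14 portions). Lsp1, an actin-binding protein known from leucocytes, was higher in 14 of 14 portions and Pamr1 in 12 of 14, with log2 fold changes of 1.08 and 1.09.

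Smaller increases were found for the matrix genes Fstl1 (0.67), Loxl1, a lysyl oxidase of elastin (0.59), Bgn, or biglycan (0.57) and Lum, or lumican (0.51), each given as a log2 fold change, and for Dpysl3 and Fxyd6. Mgp, Lsp1, Bgn, H2-K1 and Ednrb stayed called with any 1 portion left out, whereas 6 to 15 of the 19 calls in all did so. Pi16 alone stayed called without the block, in uninjured portions alone or with the plate as the unit. In the droplet libraries Nbl1 was 1.97-fold and 1.90-fold higher in members, Lsp1 1.80-fold and 1.66-fold and Mgp 1.23-fold and 1.26-fold, whereas Crispld2 had folds of 0.971 and 0.949.

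On the lower side, H2-K1, a class I histocompatibility gene, was lower in 14 of 14 portions, with medians of 555 and 992 RPM (log2 fold change -0.85, SE 0.14, edgeR adjusted p = 0.014). Reads could be shared between H2-K1 and its near relatives. Tmem176a (-0.71) and its neighbour Tmem176b (-0.69) were lower in 13 of 14 portions and Ly6e (-0.63) in 14 of 14. Ednrb, an endothelin receptor of HSCs, was lower in 13 of 14 portions, with medians of 0.135 and 20.9 RPM, and in the droplets it stood at 2.82 against 26.7 CPM and 2.05 against 27.0 CPM. Tmem215 and Zfp791 had a median of 0 in Pi16-positive wells and of 11.8 and 2.92 RPM in other wells.

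Of the markers in the label, Mfap5, Ly6c1 and Cd55 were not called by edgeR in the wells. Mfap5 was higher in 12 and lower in 1 of 14 portions, with medians of 524 and 103 RPM, a log2 fold change of 2.02 and an SE of 0.63 (edgeR adjusted p = 0.449). In uninjured portions its Pi16-positive wells lay at 0 to 593 RPM (median 344), in BDL portions at 592 to 1330 (median 765) and in CCl4 portions at 83.6 to 641 (median 270.3). Ly6c1 was at or below 34.0 RPM in 11 of 14 portions, higher in 8 and lower in 4 (edgeR adjusted p = 0.844). Cd55 was higher in 8 and lower in 6 portions, with a log2 fold change of 0.04 and an SE of 0.59 (edgeR adjusted p = 0.998). Dpp4 had a median of 0 RPM in Pi16-positive and 12.7 RPM in other wells and a log2 fold change of -3.42 (edgeR adjusted p = 0.675), the opposite sign to its droplet folds.

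Of the 22 genes of the list linked with Pi16 fibroblasts that were tested, 11 lay above and 11 below 0 with a median log2 fold change of 0.00, beside a median of -0.20 over all genes, and 0 were called. Of the 22 droplet genes past 2-fold higher, Pi16 left out, 17 were tested, 11 lay above 0 and 0 were called. Of the 64 past 2-fold lower, rule genes left out, 59 were tested, 50 lay below 0 and 2 were called lower, Ednrb and Tmem176a. Over all 11216 genes 3863 lay above and 7353 below 0. The calls here are those of edgeR, which called 0.107% of all genes higher and 0.0624% lower. DESeq2 called 77 of all genes higher and 363 lower.

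**Figure D5:**
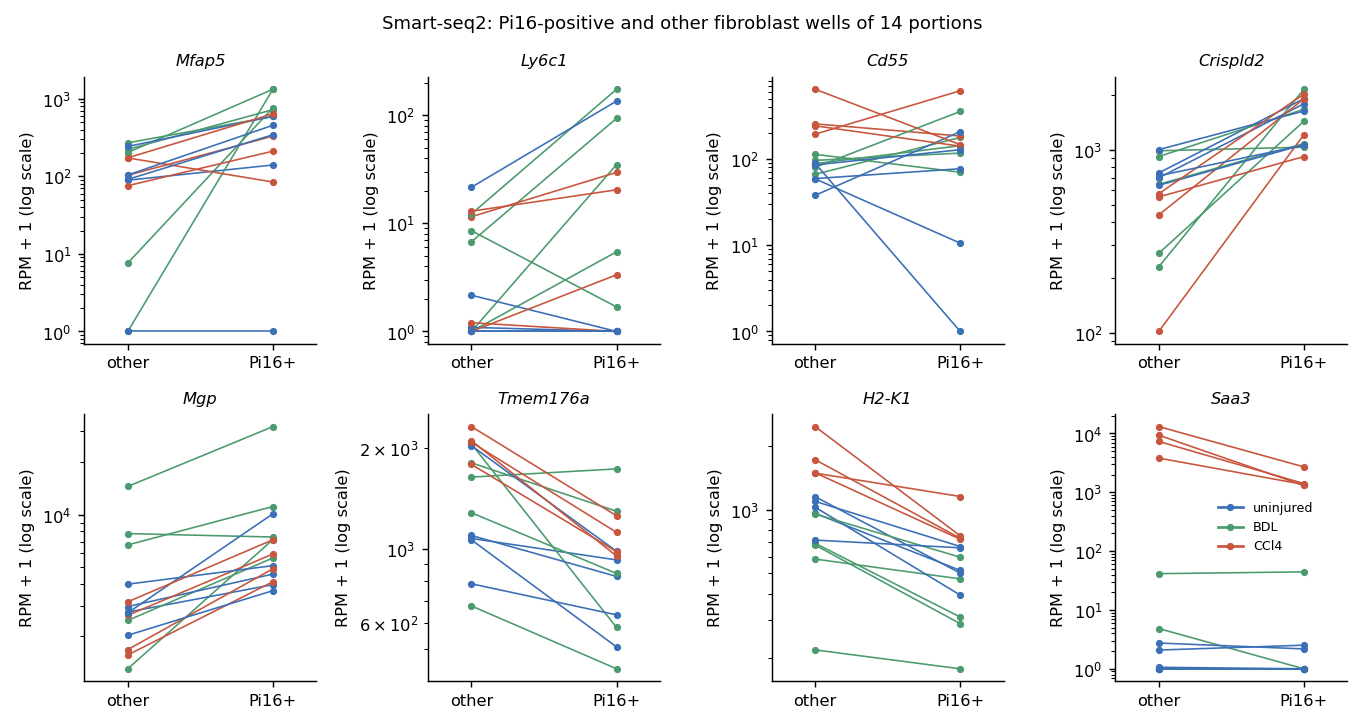
RPM plus 1 (y, log scale) of 8 genes in other fibroblast and Pi16-positive wells, each line joining both classes of 1 portion (wells of 1 mouse on 1 plate; blue, uninjured; green, BDL; red, CCl4). Crispld2 and Mgp went up in 14 and 13 of the 14 portions, H2-K1 went down in 14, Ly6c1 was at or near 0 in many, and Saa3 was above 1000 RPM only in the CCl4 portions.

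Injury was tested within the Pi16-positive wells over the same 14 portions, with the plate in the model. CCl4 portions were thus set against the uninjured portions of plates 3 and 5 alone, and BDL portions against those of plates 1, 2 and 4. Few calls from so few uninjured portions do not show that a gene was unchanged. After CCl4 edgeR called 1 of 11840 genes higher (0.00845%) and 0 lower (0.0%), with 261 genes at an unadjusted p under 0.05. DESeq2 called 146 higher and 25 lower. The gene called by edgeR was Saa3, an acute-phase serum amyloid. It lay at 0 to 1.52 RPM in the 5 uninjured portions, at 0 in 4 BDL portions and 43.4 in the fifth, and at 1305, 1355, 1407 and 2702 RPM in the CCl4 portions (log2 fold change 10.27, SE 0.75, edgeR adjusted p = 0.00717). The CCl4 portions did not overlap the others. In other fibroblast wells of the same CCl4 portions Saa3 was at 3817 to 13093 RPM, and the difference of the CCl4 response between the classes was not called. In the droplets Saa3 was at 4.72 CPM in uninjured and 10.3 CPM in CCl4 members, a ratio of 2.17. The Saa3 call was also lost without the plate in the model, with Pi16 wells set at 200 RPM or more, and without the uninjured portion of plate 3 or of plate 5, where the log2 fold change was 10.16 and 10.37.

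After BDL 0 genes were called by edgeR in either direction (0.0%), with 662 at an unadjusted p under 0.05, while DESeq2 called 555 higher and 106 lower. Angptl4, at 91.5 to 490.2 RPM in uninjured, 58.0 to 390.0 in BDL and 163 to 556 RPM in CCl4 portions, was not called, and its ranges overlapped. C4b lay at 10.1 to 609.5 RPM in uninjured, 502 to 1652 in BDL and 500.1 to 1635 RPM in CCl4 portions and was not called (edgeR adjusted p = 1 after CCl4). For the difference of the CCl4 response between Pi16-positive and other fibroblast wells, edgeR called 0 of 11216 genes in either direction, with 211 at an unadjusted p under 0.05 and 24 and 11 called higher and lower by DESeq2.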

How the data were processed

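For 10X the authors deposited UMI counts per gene and cell (Cell Ranger 2.1.0, mm10), and for Smart-seq2 the authors deposited read counts per gene and well (STAR, rpkmforgenes, mm10 with eGFP and spike-ins), neither normalized. Both were checked to be whole numbers. The layout of each plate names the mouse of each well. Cells and classes were set as stated in the report. The members, gene lists and tests were chosen with earlier results of these data known.

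CPM and RPM were computed from the sums of a class, with exact Poisson or binomial intervals at 95% and a floor of 3 counts. Named droplet genes were the 15 highest and 15 lowest by the smaller fold of both libraries with at least 50 CPM, and the 8 highest and lowest condition ratios, without the rule genes. The values of 1 named gene are not reported here. Among the plate calls, the 5 that changed most in each direction were named, with members of the lists. Wells beyond 3 median absolute deviations on low reads, low genes or high spike-in share were dropped. Clusters came from 2000 variable genes, 10 principal components, 30 neighbours and Leiden at resolution 0.8. Doublets were called at 0.8% per 1000 cells, which gave 263 uninjured and 255 CCl4 cells, and were kept. They fell unevenly on the classes, with 109 members and 123 other fibroblasts in the uninjured and 21 and 157 in the CCl4 library. When 100 summed cells were planted among 1600, the fixed rate allowed 20 calls, of which 12 were planted. Since the rate set the number of calls, the share of doublets missed in the libraries was not tested. Statistics were tested on simulated data.

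Tests were run in edgeR 4.0.16 and DESeq2 1.42.0 on R 4.3.3, and the rest in leidenalg 0.10.2, igraph 0.11.9, scikit-learn 1.9.0, SciPy 1.17.1, pandas 2.3.3, NumPy 2.4.6 and matplotlib 3.10.9 on Python 3.11.15. Positions are from GENCODE vM21. Alternatives were the Pi16 and gate thresholds, thinning (with the rule applied to thinned UMIs), doublets, mural limits, level filters, DESeq2, the well filter and leaving out each portion. The comparison against low-mural cells with 0 Pi16 UMIs, the shares, list counts and condition ratios with low-mural cells, and thinned cells with the mural limit on all UMIs, were added after seeing the data.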

Additional observations from a re-analysis of the deposited data

Results flagged for a closer look

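For 7 genes in Pi16-positive wells and for the share of these wells, each over 3 conditions, 24 groups of portions were examined and 7 had a portion far from the rest. Chance gives about 1 in 20 groups for normally distributed values, which RPM need not be. For Ly6c1 in uninjured and Saa3 in BDL portions all other values were 0, so that any value above 0 would be flagged. Ly6c1 was at 134 RPM in the uninjured portion of plate 4, with the other uninjured portions at 0. Cd55 was at 615 RPM in the portion of CCl4 mouse 2 on plate 3, which also had the highest H2-K1 of the CCl4 portions at 1152 RPM. Mgp was at 10105 RPM in the uninjured portion of plate 3 and at 31964 RPM in that of BDL mouse 1 on plate 2. Saa3 was at 43.4 RPM in the portion of BDL mouse 1 on plate 4, with the other BDL portions at 0, and at 2702 RPM in that of CCl4 mouse 1 on plate 3.

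The rule was also applied to the droplet libraries of the HSC isolation, which the comparisons did not use. It found 15 of 7310 cells in the library taken 72 h after a single CCl4 dose, 0 of 6850 in the uninjured and 3 of 5454 in the 6-week CCl4 library. The 15 cells had 1912 CPM of Mfap5, 945 of Ly6c1 and 302 of Cd55. The 593 other cells of that library that passed the gate of Cd34, Clec3b and Dpt had 1.13, 0.205 and 1.64 CPM. These came from an HSC isolation and carried the HSC genes given next, so the gate does not make them fibroblasts. Of the HSC genes, Lrat stood at 187 against 586 CPM, Reln at 159 against 395 and Hgf at 76.9 against 218. Colec11 stood at 511 against 833 CPM, whereas Ecm1 was at 462 against 416 CPM. The 15 cells come from 1 library, and no test was made.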

How the results depend on the processing

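The droplet libraries give 1 value per condition, and the plates at most 5 portions per condition, which limits both. Counts of genes past 2-fold moved with the thresholds. The higher count of 23 was 5 with at least 1 Pi16 UMI, 52 with at least 4, 57 in thinned cells, 59 against cells with 0 Pi16 UMIs, 54 against low-mural cells, 59 against cells meeting both, 14 with a gate of 10 UMIs, 15 at 50 CPM and 50 at 5 CPM. The lower count of 66 was 41 without called doublets, 39 against low-mural cells, 38 with the gate of 10, 36 at 50 CPM and 178 at 5 CPM. The member share was 71.4, 41.5 and 44.4% in the uninjured and 49.4, 23.6 and 30.97% in the CCl4 library with at least 1 UMI, at least 4 UMIs and thinning. Beside low-mural cells it was 57.7 and 49.5%. Between conditions, the higher count of 97 was 41 at 50 CPM and 267 at 5 CPM and the lower count of 28 was 17 and 80.

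In the wells, the class calls of 12 higher and 7 lower were 77 and 363 by DESeq2, 3 and 3 with the plate as the unit, 1 and 0 without the replicate block, 1 and 0 in uninjured portions, 3 higher with Pi16 at 200 RPM and 28 lower with no filter. With 1 portion left out they were 4 to 11 and 2 to 6. The lowest higher count, 4, came without the uninjured portion of plate 2 or 3, CCl4 mouse 2 of plate 3 or BDL mouse 1 of plate 4. The CCl4 calls of 1 and 0 were 146 and 25 by DESeq2, 34 and 6 with no filter, and 0 higher with Pi16 at 200 RPM, without the plate term, or without the uninjured portion of plate 3 or 5 (0 to 1 with each portion left out). The BDL calls of 0 and 0 were 555 and 106 by DESeq2, 121 and 41 with no filter, and 0 to 2 higher with 1 portion left out, Epdr1 and Cyp1b1 being called without either plate 4 portion. The interaction calls of 0 and 0 were 24 and 11 by DESeq2. The causes were not tested.

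Directions reversed for 3 named genes. Rgs5 in the CCl4 library had a fold of 1.22 in thinned cells and 1.03 against low-mural cells, and Pcp4l1 in the uninjured library 1.00 against low-mural cells and 1.03 against those with 0 Pi16 UMIs. The Smart-seq2 log2 fold change of Cd55 was -0.018 with the other well filter and -0.66 in uninjured portions, and with 1 portion left out it ranged from -0.16 to 0.32.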
